A study of Bos taurus with 6 samples.

Results

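The genes described here buffer the energy supply of muscle: the creatine kinases CKM, CKB and CKMT2, the adenylate kinase AK1, the AMP deaminases AMPD1 and AMPD3, and the creatine synthesis enzymes GATM and GAMT. They were chosen by name, and every probe set whose platform annotation gave exactly 1 symbol from these 8 genes was taken. This found 8 of 24016 probe sets, for 6 of the 8 genes, among 9155 genes named on the array. CKM and CKMT2 had 2 probe sets each, and CKB, AK1, GATM and GAMT had 1 each. No annotated probe set carried the symbol of AMPD1 or AMPD3, so these AMP deaminases were not analysed here. All 8 probe sets were bright enough to be tested.

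Total RNA from the longissimus dorsi, a long back muscle, was hybridised to Affymetrix arrays, 1 array for each of 6 male cattle. The animals were 3 Japanese Black steers, a breed known for fat within the muscle, and 3 Holstein steers, a breed kept mainly for milk. All 6 had received energy-rich feeding, so the breeds were compared under that feed and no response to the feed could be measured. The labels give neither the animals' ages nor which animals of the breeds form a pair. Values are signals in linear intensity units, and a probe set's signal can be compared between arrays but not with that of another probe set. A summed marker signal is likewise read only between arrays, and the brightest probe sets of its list weigh most in it. Breed differences are given as log2(signal + 16) in Japanese Black less that in Holstein; the added 16 shrinks the differences of dim probe sets. They come from limma, a linear model with variances moderated across all 18012 probe sets tested, with Benjamini-Hochberg adjustment over all of them and a threshold of 0.05.

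Muscle fibres use ATP faster than mitochondria can deliver it at the onset of work. Creatine kinase bridges the gap by moving phosphate from phosphocreatine to ADP, with a mitochondrial isoform that loads creatine where ATP is made and a cytosolic isoform that unloads it beside the myofibrils. Adenylate kinase recovers ATP from ADP and leaves AMP, which AMP deaminase removes as IMP and so draws the reaction forward. Creatine is made by GATM and then GAMT, mainly in other organs such as kidney, pancreas and liver in mammals, and muscle takes it up from the blood.

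The samples had the signals of skeletal muscle. The 5 measured fibre markers (ACTA1, DES, PYGM, MYBPC1 and TCAP) summed to between 50504 and 56735 units in the Japanese Black arrays and between 51655 and 56470 in the Holstein arrays. Array medians ranged over 48.5 to 54.7 units. Japanese Black 3 had an upper quartile of 205 units, against 172 to 181 for the rest of the arrays. The 3′ to 5′ signal ratio of the actin control, a measure of RNA and labelling quality, was 1.11 to 1.14 in the Japanese Black arrays and 1.003 to 1.07 in the Holstein arrays, so the breeds did not overlap. The same ratio of the GAPDH control overlapped, at 0.858 to 0.928 in the Japanese Black arrays and 0.796 to 0.884 in the Holstein arrays. Holstein 3 stood apart from the other arrays. Its log2 signals over all probe sets had an r of 0.954 to 0.973 with theirs, against 0.974 to 0.983 among the other 5. Its BioB hybridisation control read 471 units, against 245 to 309 in the others. The part of these measures in the differences below was not tested. Many of the differences below are also given without Holstein 3.

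None of the 8 probe sets passed the adjusted threshold, where 0.0167% of all probe sets tested did. By limma 0 of 8 had an unadjusted p under 0.05, against 12.6% of all probe sets, and the same linear model without moderated variances put 2 of the 8, CKM and AK1, under that level, against 10.0% of all, and 0 past the adjusted one. The adjusted p of the 8 lay between 0.434 and 0.965. Japanese Black had the greater mean log2 signal at 5 probe sets, against 51.0% of all, and the smaller at 3, with a median log2 difference of 0.042, against 0.0067 over all probe sets tested. The median size of the difference, without its sign, was 0.18 for the 8 and 0.19 for all. The breeds did not overlap at 2 of the 8, against 19.8% of all probe sets. The intervals below say how large a breed difference in signal these 6 arrays leave possible at each probe set.

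**Figure D1:**
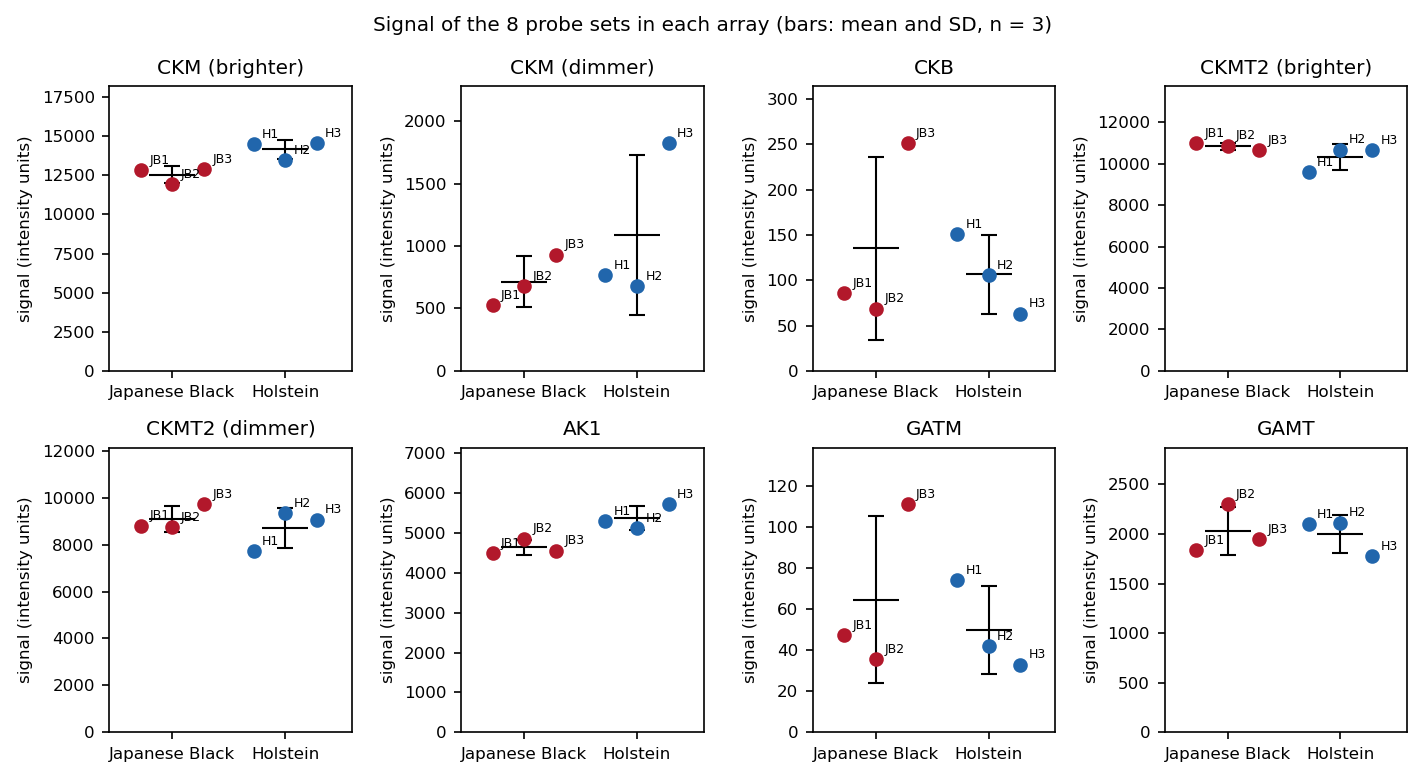
Signal in linear intensity units (vertical axes start at 0) of the 8 probe sets in each of the 6 arrays, with Japanese Black (JB) on the left and Holstein (H) on the right of each panel; points are single animals, horizontal bars the means and whiskers the SD (n = 3). For CKM (brighter) and AK1 the breeds do not overlap, while CKB and GATM are led by Japanese Black 3 at 251 and 111 units.

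CKM encodes the muscle creatine kinase of the cytosol, part of which is bound at the M-band of the sarcomere. Its brighter probe set read 12821, 11917 and 12893 units in the Japanese Black animals, against 14482, 13468 and 14561 units in the Holstein animals. Every Japanese Black value lay under every Holstein value, and the gap was small beside the level. In each array only 6 to 26 probe sets were brighter. Whether signals so near the top of the scale understate a difference was not tested. Japanese Black averaged 12544 ± 544 units and Holstein 14170 ± 610 units (SD, n = 3 each). This was a log2 difference of -0.18 (SE 0.087), or a fold of 0.885 with a 95% interval of 0.773 to 1.01, and it did not pass (limma, adjusted p 0.434).

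The dimmer CKM probe set did not show the same order of animals. It read 526, 682 and 932 units in the Japanese Black animals, against 765, 676 and 1825 units in the Holstein animals. Holstein 3 stood well above the other 5 animals, and the breeds overlapped. The log2 difference was -0.49 (SE 0.36), with a 95% interval of -1.31 to 0.33 (limma, adjusted p 0.574). Without Holstein 3 it was -0.049.

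AK1 encodes the cytosolic adenylate kinase of muscle. Its signal was 4497, 4856 and 4551 units in the Japanese Black animals, against 5297, 5107 and 5709 units in the Holstein animals. As for the brighter CKM probe set, every Japanese Black value lay under every Holstein value, which was so at 8.84% of all probe sets tested. Japanese Black averaged 4635 ± 194 units and Holstein 5371 ± 307 units (SD, n = 3 each). The log2 difference of -0.21 (SE 0.11) corresponded to a fold of 0.864 with a 95% interval of 0.732 to 1.02, and did not pass (limma, adjusted p 0.437). Leaving out each animal in turn gave differences between -0.25 and -0.17 for AK1 and between -0.21 and -0.14 for the brighter CKM probe set. Without Holstein 3 they were -0.17 for AK1 and -0.16 for CKM. Within the Holstein animals Holstein 3 was the highest and Holstein 2 the lowest in both genes. Within the Japanese Black animals Japanese Black 2 had the lowest CKM and the highest AK1 signal.

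Fibre type markers stood beside these values as follows. The summed signal of the 5 measured fast fibre markers was 67784 to 68818 units in Japanese Black and 67913 to 70639 in Holstein. That of the 5 measured slow fibre markers was 55942 to 62114 units in Japanese Black and 57947 to 59331 in Holstein. Both sums overlapped between the breeds. Among the fast markers ACTN3, the actinin of fast fibres, read 8332 to 9129 units in Japanese Black and 10596 to 11589 in Holstein, without overlap and in the same direction as CKM and AK1. TNNC2, the troponin C of fast fibres, had the opposite direction, at 14042 to 14421 units in Japanese Black and 13264 to 13435 in Holstein. Among the slow markers MYL3, the essential myosin light chain of slow fibres, read 1172 to 3003 units in Japanese Black and 3917 to 5822 in Holstein, a log2 difference of -1.29 in the direction of CKM and AK1. MYL2, the regulatory light chain of slow fibres, had the opposite direction, at 14467 to 15034 units in Japanese Black and 12580 to 13372 in Holstein. The slow troponin C gene TNNC1 did so too, at 17139 to 17450 units in Japanese Black and 16534 to 16797 in Holstein. These 5 were singled out after their values were seen as the fibre type markers without overlap, and none passed over all probe sets (limma, adjusted p 0.287 to 0.764). The part of fibre composition in the CKM and AK1 values was not tested.

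CKMT2 encodes the sarcomeric creatine kinase of mitochondria, which sits in the space between their membranes. Its brighter probe set read 10996, 10867 and 10653 units in the Japanese Black animals, against 9580, 10678 and 10666 units in the Holstein animals. Apart from Holstein 1, the lowest, all animals lay within a narrow band. The log2 difference was 0.074 (SE 0.091), a fold of 1.05 with a 95% interval of 0.912 to 1.21 (limma, adjusted p 0.744). Without Holstein 1 it was 0.022. The dimmer probe set read 8802, 8747 and 9707 units in the Japanese Black animals, against 7731, 9338 and 9065 units in the Holstein animals. Holstein 1 was again the lowest. Its log2 difference of 0.064 (SE 0.11) corresponded to a fold of 1.05 with a 95% interval of 0.881 to 1.24 (limma, adjusted p 0.821), and it was -0.020 without Holstein 1. The probe sets thus gave nearly the same difference, and both intervals include a small difference in either direction.

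GAMT encodes the methyltransferase that completes creatine. Its signal was 1836, 2297 and 1949 units in the Japanese Black animals, against 2099, 2115 and 1777 units in the Holstein animals. The breeds overlapped throughout, and averaged 2027 ± 240 units in Japanese Black and 1997 ± 190 units in Holstein (SD, n = 3 each). The log2 difference was 0.019 (SE 0.14), a fold of 1.01 with a 95% interval of 0.809 to 1.27 (limma, adjusted p 0.965). It was -0.062 without Holstein 3 and -0.073 without Japanese Black 2.

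CKB encodes the cytosolic creatine kinase of brain and smooth muscle, and GATM the amidinotransferase that makes the precursor of creatine. CKB read 86.1, 68.6 and 251 units in the Japanese Black animals, against 151, 106 and 63.2 units in the Holstein animals. GATM read 47.4, 35.8 and 111 units in the Japanese Black animals, against 74.2, 42.2 and 33.1 units in the Holstein animals. In both genes Japanese Black 3 was the highest, Holstein 1 came next and Holstein 3 was the lowest, so the breeds overlapped. The log2 difference of CKB was 0.18 (SE 0.43), with a 95% interval of -0.80 to 1.15 (limma, adjusted p 0.879). That of GATM was 0.23 (SE 0.35), with a 95% interval of -0.55 to 1.02 (limma, adjusted p 0.789). Both differences had the opposite sign without Japanese Black 3, at -0.33 for CKB and -0.15 for GATM, and that of CKB also without Holstein 3, at -0.11. The GATM difference was 0.044 without Holstein 3.

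**Figure D2:**
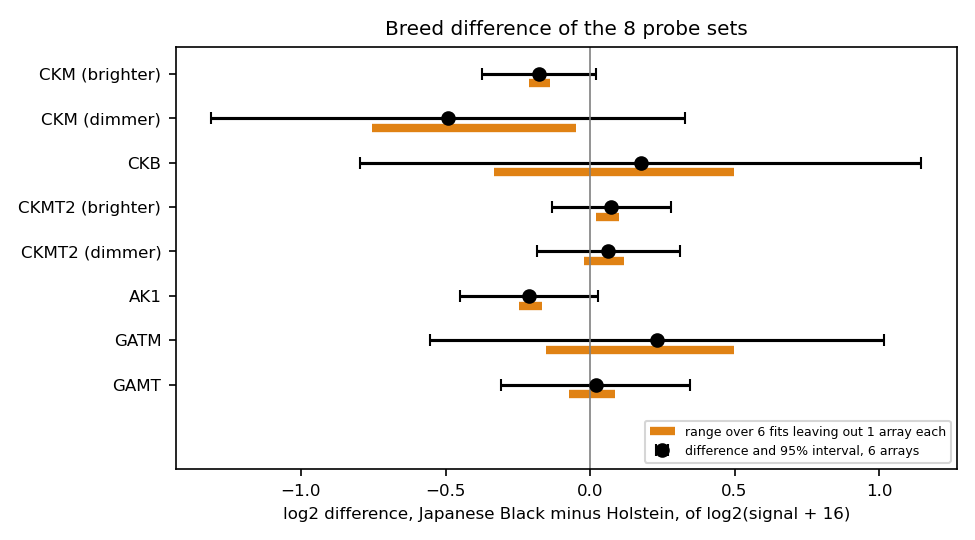
Log2 difference of each of the 8 probe sets (horizontal axis, log2(signal + 16), Japanese Black less Holstein) with its 95% interval from limma as whiskers; the thick bar under each point is the range over the 6 fits that each leave out 1 array. All 8 intervals cross 0, and those of CKB, GATM and the dimmer CKM probe set are the widest.

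The probe sets differed widely in how much they varied between animals of a breed, also within CKM. The coefficient of variation within a breed was 4.33% in Japanese Black and 4.30% in Holstein for the brighter CKM probe set. For the dimmer CKM probe set it was 28.7% in Japanese Black and 58.7% in Holstein. For AK1 it was 4.18% in Japanese Black and 5.72% in Holstein, and for the brighter CKMT2 probe set 1.59% and 6.11%. It was 74.5% in Japanese Black and 41.1% in Holstein for CKB, and 62.6% and 43.3% for GATM. Of all probe sets tested 1.40% had a smaller residual SD on the log2 scale than the brighter CKM probe set. The share was 1.62% for the brighter CKMT2 probe set, 98.2% for CKB, 96.9% for the dimmer CKM probe set and 96.2% for GATM. GAMT and the dimmer CKMT2 probe set lay between, with 22.8% and 11.3% of probe sets having a smaller residual SD. Signal level differed too: 99.9% of all probe sets were dimmer than the brighter CKM one and 92.7% than the dimmer one. For CKB and GATM 66.0% and 50.8% were dimmer. The part of signal level in this spread was not tested.

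Over the 6 arrays CKB and GATM had nearly the same pattern. Their log2 signals had a Pearson r of 0.98 and a Spearman rho of 0.94 (n = 6 animals), the one pair above 0.9 among the 28 pairs of the 8 probe sets. Without Japanese Black 3 and Holstein 1, the arrays farthest from the median of CKB, r was 0.77 over 4 animals. The values share arrays and total signal, and Japanese Black 3 also had the highest upper quartile. The 2 CKMT2 probe sets had an r of 0.74 and a rho of -0.029. Holstein 1 was the lowest at both, while Japanese Black 1 was the highest at the brighter and under the 6-array mean at the dimmer. Without these 2 arrays the r was -0.81 over 4 animals, so the probe sets did not agree over those 4. The 2 CKM probe sets had an r of 0.58 and a rho of 0.60, and an r of 0.20 over 4 animals without Japanese Black 2 and Holstein 3.

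**Figure D3:**
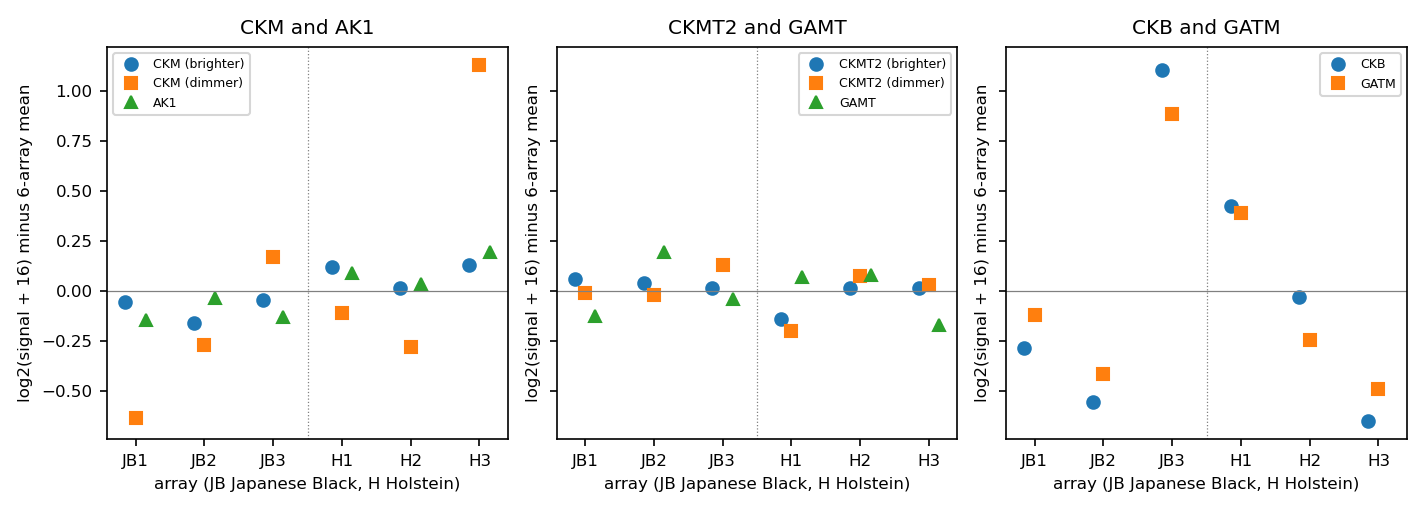
Log2(signal + 16) of each probe set in each array minus its mean over the 6 arrays (shared vertical axis), with the Japanese Black arrays (JB) left of the dotted line and the Holstein arrays (H) right of it. CKB and GATM move together over a wide range with Japanese Black 3 at the top. The brighter CKM probe set, AK1, both CKMT2 probe sets and GAMT stay between -0.20 and 0.20. The dimmer CKM probe set departs from the brighter one in Holstein 3.

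Markers of other cell types were set beside CKB and GATM, since CKB is also made outside muscle fibres. In whole tissue a smaller number of cells of a type and less RNA per cell cannot be told apart. PTPRC, the CD45 antigen of leukocytes, read 82.7, 89.5 and 160 units in the Japanese Black animals, against 138, 99.8 and 75.7 units in the Holstein animals, with Japanese Black 3 first, Holstein 1 next and Holstein 3 last as in CKB and GATM. Of the 5 measured leukocyte markers it was the one that followed CKB (r = 0.96 over 6 arrays, singled out after its values were seen), since AIF1, CD68, CD14 and CD3E had an r of 0.57, 0.36, 0.12 and -0.37. The summed leukocyte signal was 355 to 590 units in Japanese Black and 422 to 516 in Holstein. The 4 measured adipocyte markers FABP4, ADIPOQ, LEP and CIDEC had an r with CKB of 0.84, 0.86, 0.71 and 0.89, and summed to 2332 to 11286 units in Japanese Black and 1376 to 9017 in Holstein. The 6 smooth muscle and pericyte markers summed to 3915 to 12126 units in Japanese Black and 4369 to 8738 in Holstein. An r with CKB between 0.52 and 0.76 was found for 5 of them, LMOD1 having -0.28. Japanese Black 3 was the highest in those 5 and in the 4 adipocyte markers, and no r without it is given here. Holstein 2 came next in all of these, whereas Holstein 1 came next in CKB. ACTA2 read 7858 units in Japanese Black 3, 5127 in Holstein 2 and 2745 in Holstein 1. The fibroblast, endothelial and erythrocyte markers had summed signals that overlapped between the breeds. Their r with CKB ranged from 0.18 to 0.71, 0.17 to 0.72 and -0.82 to 0.92, the last for SLC4A1 at 0 to 7.14 units. That of the fibre markers ranged from -0.42 to 0.71 and that of the slow fibre markers from 0.059 to 0.68. With GATM the r was 0.60 to 0.79 for the adipocyte markers and -0.38 to 0.64 for the smooth muscle and pericyte markers. The 3 measured Schwann cell and nerve markers summed to 1427 to 2809 units in Japanese Black and 942 to 1415 in Holstein, without overlap. Most of that sum was S100B, at 1370 to 2739 units in Japanese Black and 876 to 1354 in Holstein. GFAP of the same list had the direction of S100B, at 26.1 to 36.2 units in Japanese Black and 15.1 to 23.8 in Holstein. SOX10 had the opposite direction, at 30.9 to 41.3 units in Japanese Black and 42.7 to 57.5 in Holstein. The r with CKB was 0.43 for S100B, 0.18 for GFAP and -0.22 for SOX10. None of the leukocyte, adipocyte and smooth muscle markers was listed at 0 in any array, and their part in the CKB and GATM values was not tested.

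Genes whose pattern over the 6 arrays was most like each member's were picked by Pearson r among 10828 tested probe sets with 1 symbol. For CKM and CKMT2 only the brighter probe set was used, so the genes and counts given belong to that probe set. The best r lay between 0.985 and 0.996 for every member. A search of 10828 probe sets over 6 arrays can reach such an r by chance, so the names are a description and were not tested. For CKB they were QPRT, an enzyme of NAD synthesis (r = 0.996), IRF8, a transcription factor of myeloid and B cells (r = 0.994), and WIPF1, an actin regulator of blood cells (r = 0.993). For GATM they were PABPC1, a poly(A) binding protein (r = 0.996), PARP16 (r = 0.993) and ANP32A (r = 0.983). For CKM they were UQCC5, an assembly factor of respiratory complex III (r = 0.996), GALNT14 (r = 0.991) and CD8A (r = 0.985). For AK1 they were NDEL1 (r = 0.994), GLYCAM1 (r = 0.991) and EIF6, a ribosome assembly factor (r = 0.9898). For CKMT2 they were RAMP1 (r = 0.995), ZNRF1 (r = 0.994) and UPK2 (r = 0.975), and for GAMT MED23 (r = 0.985), EPC2 (r = 0.977) and CREM (r = 0.973). An r above 0.9 was reached by 197 probe sets with CKM (1.82% of those searched), 196 with CKB (1.81%), 48 with CKMT2 (0.443%), 251 with AK1 (2.32%), 133 with GATM (1.23%) and 49 with GAMT (0.453%).

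The other genes of creatine transport, adenylate exchange and purine nucleotide turnover were 50 symbols, of which 32 had a probe set and 31 a tested one. By limma 0 of their 42 tested probe sets passed the adjusted threshold. At an unadjusted p under 0.05 there were 7, 3 with the greater mean in Japanese Black, as at 7.31% of all probe sets tested, and 4 with the smaller, as at 5.28%. The breeds did not overlap at 10 of the 42, against 19.8% of all. The median log2 difference was -0.11, against 0.0067 over all probe sets tested, with 15 above and 27 below 0.

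SLC6A8, the transporter that brings creatine into the fibre, had a log2 difference of -0.12 (SE 0.18) at its brighter probe set, whose signals overlapped. It was -0.30 without Holstein 2, -0.061 without Holstein 1 and -0.0038 without Holstein 3. The dimmer SLC6A8 probe set had a difference of -0.0010. The mitochondrial isoform CKMT1A was too dim to be tested, at 12.3 to 13.7 units in the Japanese Black animals and 17.3 to 21.1 units in the Holstein animals. Of the adenylate kinases, AK3 of the mitochondrial matrix, which uses GTP, stood apart from AK1 in direction. Its brighter probe set read 618, 678 and 798 units in the Japanese Black animals, against 414, 479 and 259 units in the Holstein animals, without overlap. The log2 difference was 0.87 (SE 0.23) there and 0.70 (SE 0.22) at the dimmer probe set, and neither passed (limma, adjusted p 0.301 and 0.325). Without Holstein 3, the lowest at both, the AK3 differences were 0.62 and 0.51. AK4, another matrix isoform, had a difference of 0.094 with overlapping signals.

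In the purine nucleotide cycle, which turns the IMP left by AMP deaminase back into AMP, 6 of 7 tested probe sets had the smaller mean log2 signal in Japanese Black, against 49.0% of all probe sets, and 0 passed. The 7 stand for 4 genes, with 3 of them from ADSS1 and 2 from ADSL. ADSS1, the muscle form of adenylosuccinate synthase, read 526, 468 and 377 units in the Japanese Black animals, against 661, 597 and 848 units in the Holstein animals at its second brightest probe set. The log2 difference of -0.60 (SE 0.19) did not pass (limma, adjusted p 0.330), and its other probe sets had -0.23 and -0.10. At the second brightest probe set it was -0.46 without Holstein 3, the highest. AMPD2, the AMP deaminase described mainly in non-muscle tissues, was the AMP deaminase gene that could be read. It had 40.2, 54.4 and 67.1 units in the Japanese Black animals, against 89.3, 66.0 and 82.7 units in the Holstein animals, with overlap. Its log2 difference was -0.46 (SE 0.20, limma, adjusted p 0.390). ADSL, which acts after adenylosuccinate synthase, had -0.22 at its bright probe set and -0.33 at its dim one, which read 10.6 to 25.8 units. The exception in direction was ADSS2, the other adenylosuccinate synthase, with 0.18 (SE 0.27) and overlapping signals.

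Among the enzymes that break nucleotides down, NT5C3A, a cytosolic nucleotidase best known for pyrimidine nucleotides, read 863, 544 and 691 units in the Japanese Black animals, against 398, 416 and 231 units in the Holstein animals. PNP, the purine nucleoside phosphorylase, read 1923, 1713 and 2022 units in the Japanese Black animals, against 2426, 2505 and 3113 units in the Holstein animals. Neither gene's breeds overlapped, and the directions were opposite. The log2 differences were 0.99 (SE 0.26) for NT5C3A and -0.50 (SE 0.14) for PNP, and neither passed (limma, adjusted p 0.3004 and 0.313). Without Holstein 3 they were 0.73 for NT5C3A and -0.39 for PNP. The other 7 tested probe sets of this group had differences between -0.37 and -0.048.

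The remaining roles held smaller differences. In nucleotide salvage ADK, the adenosine kinase, had 0.35 (SE 0.25), with the value of Holstein 3 at 259 units and all other animals at 485 to 562. Without Holstein 3 the ADK difference was 0.047. Among the nucleoside diphosphate kinases NME6 had 0.20 (SE 0.15) and the other 4 lay between -0.16 and 0.031. Of the carriers that exchange ATP and ADP across the inner mitochondrial membrane, SLC25A4, the main form of muscle, had 0.067 (SE 0.096). SLC25A6 had -0.37 (SE 0.16, limma, adjusted p 0.392) at its brightest probe set, and -0.30 there without Holstein 3. Its other probe sets had -0.25 and 0.086, in opposite directions. SLC25A5 had -0.34 at its brighter probe set and -0.12 at its dimmer one. The outer membrane channel VDAC1 had 0.27 and 0.22 at its 2 probe sets, and VDAC2 and VDAC3 had -0.11 and -0.019.

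**Figure D4:**
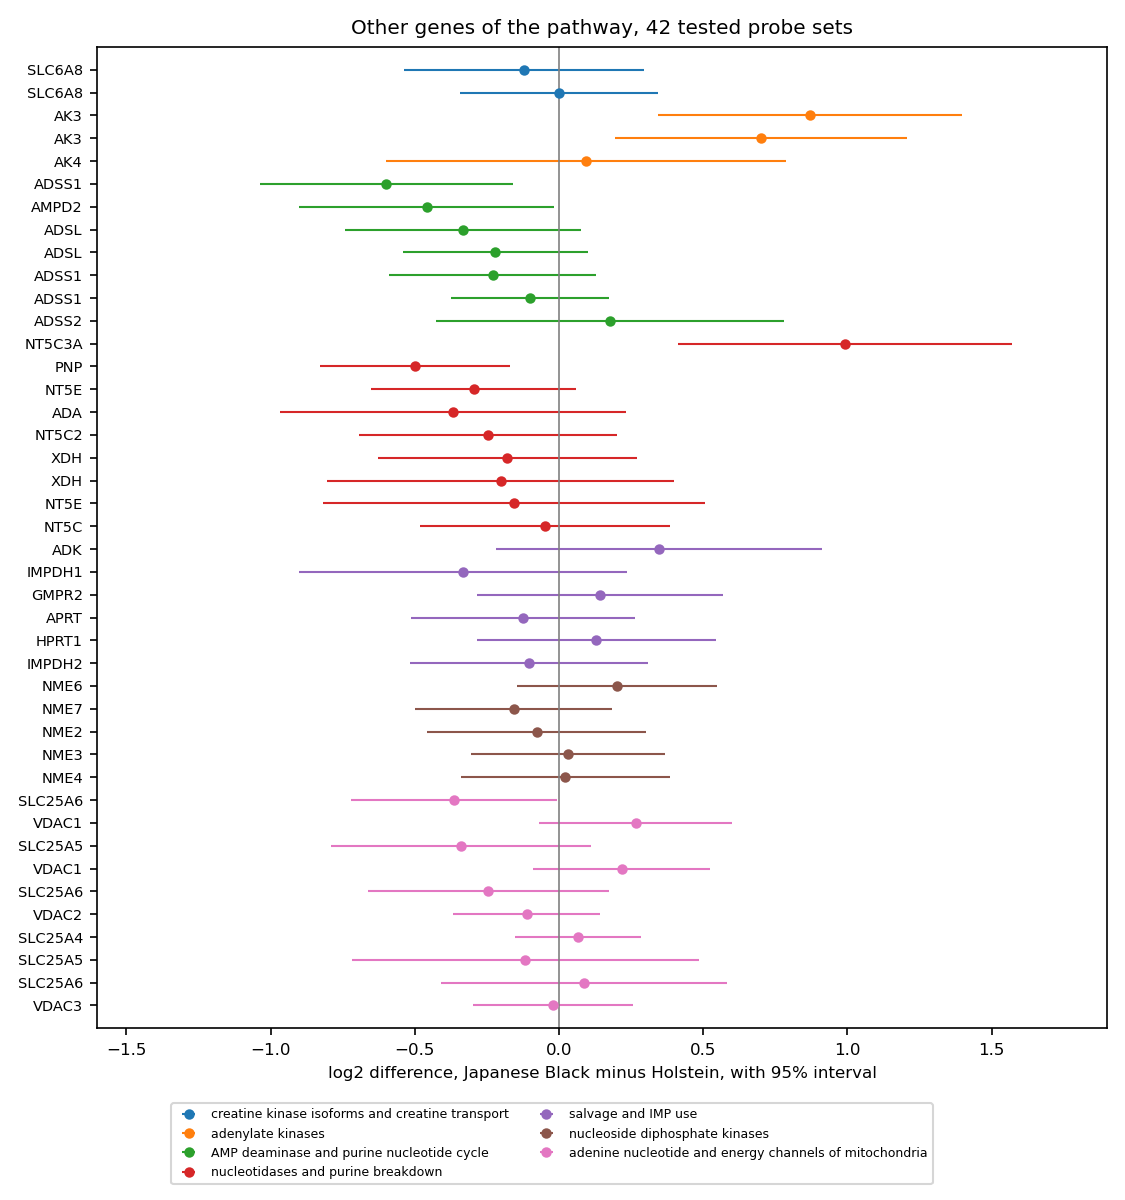
Log2 difference (horizontal axis, log2(signal + 16), Japanese Black less Holstein) with its 95% interval from limma for the 42 tested probe sets of the other pathway genes, coloured by role and ordered by p within a role. The whole intervals of AK3 at both probe sets and NT5C3A lie right of 0. Those of AMPD2, PNP and 1 probe set each of ADSS1 and SLC25A6 lie left of 0, and none passed the adjusted threshold.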

How the data were processed

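The deposited values are linear intensities, 1 for each probe set on each array. The submitters' processing notes name GCOS 1.1.1 and Affymetrix Expression Console 1.1; how probes were summarised and scaled is not given in the sources used here. For the tests, 112 control probe sets were removed, 16 was added to every intensity before log2 was taken, and the dimmest 25% of probe sets by mean were dropped, which kept 18012. The breed comparison used limma 3.58.1 (R 4.3.3; lmFit and eBayes with an intensity trend), two-sided. It was unpaired: a paired t-test is named in the series design, but no label gives the pairs. Replicate numbers only name animals, and the number of arrays limits the precision. In the platform annotation 13292 probe sets had 1 symbol, 86 several and 10638 none. Sequences and coordinates were not used here. Members, gene lists and tests were chosen with earlier results of these data known. Pathway genes were named where the unadjusted p was under 0.05 or was the smallest of a role; others were added after their values were seen. The tests were checked on simulated data. Alternatives were offsets of 1 and 64, other filters, normalizations and variance models, array weights, 1 probe set per gene and leaving out each array. Matplotlib 3.10.9 (Python 3.11.15) drew the figures.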

Additional observations from a re-analysis of the deposited data

How the results depend on the processing

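No paired analysis was possible because no label links an animal of one breed to an animal of the other. Of 126 recomputed differences of the 8 probe sets, 117 kept their sign, 9 reversed and 0 passed the adjusted threshold, as did 0 pathway genes under every alternative run. With array weights CKB was -0.25 and GATM -0.082, and after quantile normalization GAMT was -0.074. Leaving out each array in turn gave -0.33 to 0.50 for CKB, -0.15 to 0.50 for GATM, -0.073 to 0.087 for GAMT and -0.020 to 0.12 for the dimmer CKMT2 probe set. Without Japanese Black 3 CKB was -0.33 and GATM -0.15; without Holstein 3 CKB was -0.11 and GAMT -0.062; without Japanese Black 2 GAMT was -0.073; without Holstein 1 the dimmer CKMT2 probe set was -0.020. What else moved these values was not tested. The number of the 8 with a greater mean in Japanese Black was 5 with all arrays, 3 with array weights and 3 to 5 with an array left out (3 without Japanese Black 3 or Holstein 3). Over all probe sets 3 passed the adjusted threshold. This was 0 with an offset of 1, with the dimmest 50% left out and with the plain t-test (1806 at an unadjusted p under 0.05, 2 of them among the 8), 10 with array weights and 0 to 15 with an array left out. Leaving out Holstein 2 gave 15, leaving out Holstein 3 gave 1, and leaving out any Japanese Black animal gave 0. The brighter CKM probe set kept a difference of -0.19 to -0.16 and AK1 one of -0.21 to -0.17 under the 10 alternatives that used all arrays. At an unadjusted p the brighter CKM probe set reached 0.0208 after quantile normalization, 0.0269 with the plain t-test and 0.0463 without Japanese Black 3, and AK1 0.0223 with the plain t-test.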
